A study of Homo sapiens with 6 samples.

Results

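The inhibitors of cyclin-dependent kinases and the D cyclins were followed in VCaP prostate cancer cells in which the arginine methyltransferase PRMT5 was knocked down. The set was defined by name as the 10 genes CDKN1A, CDKN1B, CDKN1C, CDKN2A, CDKN2B, CDKN2C, CDKN2D, CCND1, CCND2 and CCND3. A probe set, the group of probes that reads out a transcript on the array, was taken if the platform annotation gave it exactly 1 of these symbols. This gave 22 probe sets of the 54675 on the array, for 9 of the 10 genes, beside 19775 genes with such a probe set in the whole series. CDKN2C had no probe set under this rule and is not analysed here.

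VCaP, an established line of prostate cancer cells, has a TMPRSS2-ERG fusion. Cells expressing a non-targeting hairpin (NTC shRNA), a first hairpin against PRMT5 (PRMT5 shRNA 1) or another one (PRMT5 shRNA 2) were compared, with 2 arrays in each of the 3 groups. Each group, the NTC controls included, had received doxycycline at 100 ng/ml for 3 days, so the comparison is between hairpins under the same drug. Whether the replicates came from separate cultures is not stated in the labels. The p-values therefore measure spread between these arrays only, and that spread may be technical.

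Cyclin D proteins bind CDK4 and CDK6 and start the phosphorylation of the retinoblastoma protein RB, which releases E2F transcription factors and lets the cell enter S phase. The INK4 inhibitors, encoded by CDKN2A, CDKN2B, CDKN2C and CDKN2D, bind CDK4 and CDK6 themselves. The CIP/KIP inhibitors p21 (CDKN1A), p27 (CDKN1B) and p57 (CDKN1C) bind complexes of a cyclin with its kinase and block CDK2 in particular. CDKN1A is controlled mainly by transcription, CDKN1C is an imprinted gene, and p27 is controlled largely by protein degradation, which an RNA array does not read.

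The promoters of CDKN1A and CDKN1B are shown as those of 2 CIP/KIP genes with unlike results. The intensity of the first differed between the hairpins, and that of the other was not called in any comparison. Neither trait was theirs alone: CCND1 was also called between the hairpins, and CDKN2A, CDKN2D and CCND3 were also not called. Each sequence is the 250 bases upstream of the annotated start in RefSeq (GRCh38.p14), 5′ to 3′ on the strand of the gene, at chr6:36678464-36678713 for CDKN1A and chr12:12717118-12717367 for CDKN1B, both on the plus strand. Capitals mark the GC box GGGCGG read on this strand.
CDKN1A: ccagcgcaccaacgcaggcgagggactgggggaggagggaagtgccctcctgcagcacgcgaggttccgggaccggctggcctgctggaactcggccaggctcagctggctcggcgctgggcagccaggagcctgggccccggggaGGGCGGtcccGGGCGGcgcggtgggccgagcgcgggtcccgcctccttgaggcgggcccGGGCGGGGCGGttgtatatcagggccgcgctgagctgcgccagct
CDKN1B: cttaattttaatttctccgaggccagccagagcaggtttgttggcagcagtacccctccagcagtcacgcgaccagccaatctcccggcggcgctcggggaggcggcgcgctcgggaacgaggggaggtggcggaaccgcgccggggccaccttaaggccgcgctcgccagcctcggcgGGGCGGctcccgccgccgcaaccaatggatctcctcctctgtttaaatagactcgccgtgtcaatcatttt
Counted on both strands, with overlapping matches kept, the CDKN1A window held 4 GC boxes and the CDKN1B window 1. Among the other members with no call, the CCND3 windows held 5, 2 and 0, the CDKN2D window 2 and the CDKN2A windows 0 and 1. A GC box was present in 42.6% of the 35116 RefSeq windows of this length. CCAAT occurred 2 times in the CDKN1B window and 0 times in that of CDKN1A, beside a share of 32.0% over the RefSeq windows. Neither window held CACGTG (6.34% of windows) or TATAAA (10.7%). The GC content was 76.4% for CDKN1A and 64.4% for CDKN1B, against a median of 58.0% over the windows. RefSeq windows were found for 7 of the members, and not for CDKN1C, CCND1 and CCND2. These matches describe the letters of the windows and were not linked to any binding measurement.

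PRMT5 itself, the target of both hairpins, had intensities of 809.8 and 880.5 with NTC, 135.6 and 133.8 with PRMT5 shRNA 1, and 291.2 and 321 with PRMT5 shRNA 2. The groups did not overlap, and the lowest values were those of PRMT5 shRNA 1. PRMT5 was higher with PRMT5 shRNA 2 than with PRMT5 shRNA 1 by 1.09 ± 0.08 on the log2 scale (SE, limma, adjusted p = 7.71e-05). The deposited values are intensities on a linear scale whose medians lay between 14.8 and 16.4 in the 6 arrays, and the number of arrays limits the precision. Of 9 listed prostate luminal markers, 7 had a probe set and all 7 exceeded the array median in every array. Of the 3 basal epithelial markers with a probe set, KRT5 and KRT15 were below the array median in every array and KRT14 was above it in every array. Of the 7 measured stromal, endothelial and immune markers, COL1A2, COL3A1, PDGFRB, PECAM1, VWF and PTPRC were below it in every array and COL1A1 was above it. The ratio of 3′ to 5′ probe sets, a sign of RNA integrity, was 1.26 to 1.33 for GAPDH with NTC, 1.21 to 1.23 with PRMT5 shRNA 1 and 1.22 to 1.23 with PRMT5 shRNA 2. For ACTB it was 4.58 to 4.88, 3.49 to 3.88 and 5.0 to 5.72, and its part in the results was not tested.

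Differences are given on the log2(intensity + 16) scale, on which changes of dim probe sets are understated, with the standard error (SE) of a limma fit over all 6 arrays. A probe set entered the test if, in 2 or more of the 6 arrays, its intensity was no lower than the array median, and it was called at a Benjamini-Hochberg adjusted p under 0.05 over the 28644 probe sets so kept. Of the 22 member probe sets, 13 were kept, for 8 genes, and 9 were not. The comparisons of both hairpins averaged, of PRMT5 shRNA 1 and of PRMT5 shRNA 2 with NTC share the same 2 NTC arrays. In whole-culture RNA, fewer cells expressing a gene and less RNA per cell cannot be told apart.

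With both hairpins averaged, 3 of the 13 kept member probe sets were called (23.1%), all higher than with NTC, where 28.2% of all probe sets were called. With PRMT5 shRNA 1 the count was 4 (30.8%, against 36.4% of all probe sets), and with PRMT5 shRNA 2 it was 3 (23.1%, against 18.0%). Between the hairpins, 2 member probe sets were called (15.4%), beside 25.8% of all probe sets. The median difference of the kept member probe sets was 0.14 with both hairpins averaged and -0.01 over all probe sets. For PRMT5 shRNA 1 these medians were 0.16 and -0.01, and for PRMT5 shRNA 2 they were 0.13 and -0.02. Counted in either direction, the share called was thus near the background, and the set did not stand out by its number of changes. Each member call against NTC was higher. Of all 28644 kept probe sets, 3869 were called higher with both hairpins averaged, 5001 with PRMT5 shRNA 1 and 2686 with PRMT5 shRNA 2. Whether the direction of the member calls departs from that background was not tested. The called genes were CDKN1A and CDKN1C with PRMT5 shRNA 2, and CDKN1C, CDKN2B and CCND1 with PRMT5 shRNA 1. The CDKN2B probe set 236313_at and the CDKN1C probe sets 219534_x_at and 213182_x_at passed the filter through knockdown arrays alone. The filter thus selected them for higher values in knockdown arrays, and they give no support to these counts or to the member medians. CDKN1B, CDKN2A, CDKN2D and CCND3 had no called probe set in any comparison.

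**Figure D1:**
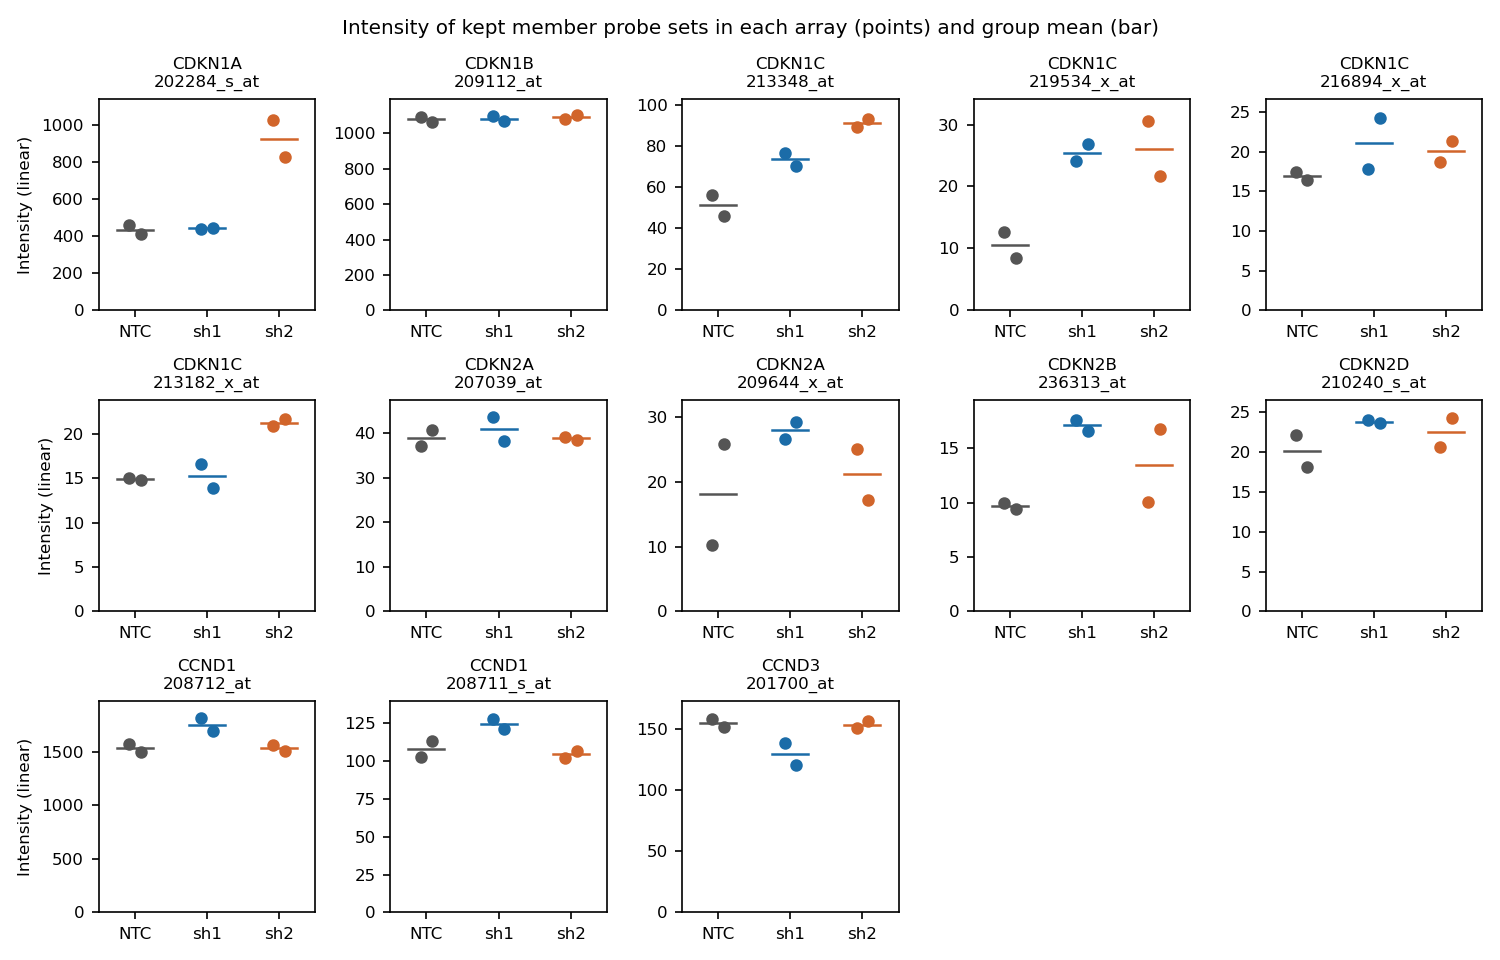
Deposited intensity (linear scale, each panel from 0 on its own axis) of the 13 kept member probe sets in the 6 arrays; points are arrays, horizontal bars are group means, sh1 and sh2 are PRMT5 shRNA 1 and 2. CDKN1A lay between 412.3 and 459.5 in the NTC and sh1 arrays and at 824.8 and 1025.4 in the sh2 arrays, while CDKN1B lay between 1064.5 and 1103.6 in all 6.

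CDKN1A, which encodes p21, rose with PRMT5 shRNA 2 and was not called with PRMT5 shRNA 1. Its single probe set, 202284_s_at, read 459.5 and 412.3 with NTC, 441.4 and 444.6 with PRMT5 shRNA 1, and 1025.4 and 824.8 with PRMT5 shRNA 2. Both PRMT5 shRNA 2 arrays lay above the other 4, and the PRMT5 shRNA 1 values fell between those of the NTC arrays. The group means were 436 ± 33.4, 443 ± 2.26 and 925 ± 142 (SD, n = 2 each), which is 1.02 times NTC for the first hairpin and 2.12 times for the other. The difference from NTC was 0.02 ± 0.10 with PRMT5 shRNA 1 (limma adjusted p = 0.865) and 1.05 ± 0.10 with PRMT5 shRNA 2 (adjusted p = 2.32e-05). The difference between the hairpins themselves was 1.03 ± 0.10 (adjusted p = 1.56e-04), with PRMT5 shRNA 2 higher in 2 of 2 arrays. It lay between 0.87 and 1.18 with each array left out in turn and stayed called each time. PRMT5 shRNA 2 was the hairpin with the higher remaining PRMT5 intensity, as given above. The ACTB 3′ to 5′ ratio was also higher in those 2 arrays than in the other 4, and its part in the CDKN1A difference was not tested. KRT14 (0.57 ± 0.12, adjusted p = 0.00765) and COL1A1 (0.54 ± 0.13, adjusted p = 0.0149) were higher with PRMT5 shRNA 2 than with PRMT5 shRNA 1. So were the luminal markers HOXB13 (0.37 ± 0.08, adjusted p = 0.00637) and ERG (0.38 ± 0.07, adjusted p = 0.00322), while the other luminal markers were not called. Unlike CDKN1A, KRT14, HOXB13 and ERG were called lower than NTC with PRMT5 shRNA 1 and not called with PRMT5 shRNA 2. The luminal markers went both ways. With PRMT5 shRNA 1, KLK3, KRT8 and KRT18 were called higher than NTC, while TMPRSS2, like HOXB13 and ERG, was called lower. With PRMT5 shRNA 2, KLK3 and KRT8 were called higher and 0 luminal markers lower. COL1A1 was called against NTC with neither hairpin. The summed intensity of the 3 basal markers was 40.7 to 52.8 with NTC, 28.8 to 39.1 with PRMT5 shRNA 1 and 49.0 to 55.9 with PRMT5 shRNA 2. For the 7 stromal, endothelial and immune markers it was 61.6 to 68.9, 47.5 to 60.3 and 63.0 to 79.4. For the 7 luminal markers it was 6090 to 6506, 7192 to 7534 and 7524 to 8245. The part of these markers in the CDKN1A difference was not tested.

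Averaging the hairpins gave a CDKN1A difference of 0.54 ± 0.08 (limma adjusted p = 7.13e-04), a value that neither hairpin showed on its own. When the 4 knockdown arrays were fitted as 1 group, so that the spread between hairpins entered the error, the same difference had an SE of 0.31 and was not called (adjusted p = 0.324).

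CDKN1B, which encodes p27, had an even level across the study. Its probe set 209112_at read 1091.7 and 1064.5 with NTC, 1095.2 and 1069.8 with PRMT5 shRNA 1, and 1083.3 and 1103.6 with PRMT5 shRNA 2. The ranges of the 3 groups overlapped. The differences from NTC were 0.01 ± 0.06 and 0.02 ± 0.06, and neither was called by limma.

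CDKN1C, which encodes p57, was higher with each PRMT5 hairpin on its brightest probe set. This probe set, 213348_at, read 56.2 and 46.1 with NTC, 76.7 and 70.3 with PRMT5 shRNA 1, and 89 and 92.8 with PRMT5 shRNA 2. The groups did not overlap: the 4 knockdown arrays lay above both NTC arrays, and PRMT5 shRNA 2 lay above PRMT5 shRNA 1. Means of 51.2 ± 7.14, 73.5 ± 4.53 and 90.9 ± 2.69 (SD, n = 2 each) correspond to 1.44 and 1.78 times NTC. The limma differences were 0.42 ± 0.11 for PRMT5 shRNA 1 (adjusted p = 0.0121), 0.67 ± 0.11 for PRMT5 shRNA 2 (adjusted p = 0.00144) and 0.55 ± 0.09 for both averaged (adjusted p = 0.00148). The difference between the hairpins, 0.26 ± 0.11, was not called (adjusted p = 0.105). The averaged difference was also called with the hairpins fitted as 1 group (adjusted p = 0.0364). The call for PRMT5 shRNA 1 ended without NTC replicate 2 (0.31, adjusted p = 0.109) and without PRMT5 shRNA 1 replicate 1 (0.37, adjusted p = 0.0797).

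The CDKN1C probe set 219534_x_at read 12.6 and 8.4 with NTC, 24.1 and 26.8 with PRMT5 shRNA 1, and 30.5 and 21.7 with PRMT5 shRNA 2. The NTC arrays were the lowest, and the ranges of the hairpins overlapped. It was kept through the knockdown arrays alone, since both NTC values were below the array median. The filter thus favoured a difference, and this probe set adds no support of its own. Its differences were 0.65 ± 0.13 (limma adjusted p = 0.00364) and 0.66 ± 0.13 (adjusted p = 0.00589). With a pseudocount of 1 the averaged difference of 0.66 became 1.23, and with a pseudocount of 64 it became 0.27. The call for PRMT5 shRNA 2 ended without NTC replicate 2 (0.55, adjusted p = 0.053) or PRMT5 shRNA 2 replicate 1 (0.51, adjusted p = 0.0545).

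The other CDKN1C probe sets were dim and were not called. 216894_x_at ranged from 16.5 to 24.3 over the 6 arrays and differed by 0.15 ± 0.11 with both hairpins averaged (limma adjusted p = 0.332). 213182_x_at read 15 and 14.8 with NTC, 16.6 and 13.9 with PRMT5 shRNA 1, and 20.9 and 21.7 with PRMT5 shRNA 2, and its difference of 0.27 ± 0.11 with the latter was not called (adjusted p = 0.114). 213182_x_at, too, was kept through knockdown arrays alone, since both NTC values were below the array median. 219533_at stayed between 3.4 and 6.3 and was not kept. The suffix _x_at marks probe sets that can bind related transcripts. The kept probe sets of CDKN1C differed in whether they were called, though each had a positive averaged difference (0.55, 0.66, 0.15 and 0.14). Those of 219534_x_at and 213182_x_at were favoured by the filter.

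Among the INK4 genes, CDKN2A was not called on either kept probe set. 207039_at read 37.1 and 40.7 with NTC, 43.6 and 38.2 with PRMT5 shRNA 1, and 39.2 and 38.4 with PRMT5 shRNA 2, with overlapping groups and an averaged difference of 0.02 ± 0.09. 209644_x_at read 10.3 and 25.9 with NTC, 26.7 and 29.3 with PRMT5 shRNA 1, and 25.1 and 17.2 with PRMT5 shRNA 2. Its NTC arrays spanned most of the whole range, and the difference of 0.41 ± 0.19 with PRMT5 shRNA 1 was not called (limma adjusted p = 0.118). Without NTC replicate 2, which held the higher value, it was 0.74 and called (adjusted p = 0.00774), and the averaged difference was 0.62 in place of 0.28 (adjusted p = 0.0166). Without NTC replicate 1 these differences were 0.07 (adjusted p = 0.79) and -0.06 (adjusted p = 0.841), so the value turned on which NTC array was kept. The third probe set, 211156_at, stayed between 0.5 and 2.8. The CDKN2A locus encodes both p16 and the unrelated ARF protein from shared exons, and the annotation used here does not separate them.

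CDKN2B, which encodes p15 and lies next to CDKN2A on chromosome 9, was close to the background. Its probe set 236313_at read 10 and 9.4 with NTC, 17.6 and 16.6 with PRMT5 shRNA 1, and 10.1 and 16.8 with PRMT5 shRNA 2. Both PRMT5 shRNA 1 arrays were above NTC, and the PRMT5 shRNA 2 arrays spread from the NTC level to near that of the first hairpin. The difference of 0.36 ± 0.13 with PRMT5 shRNA 1 was called (limma adjusted p = 0.0461), and that of 0.19 ± 0.13 with PRMT5 shRNA 2 was not (adjusted p = 0.354). The difference between the hairpins was -0.18 ± 0.13 and was not called (adjusted p = 0.331). The probe set was kept through knockdown arrays alone. Its call ended without either NTC array and without either PRMT5 shRNA 1 array (0.34 to 0.39, adjusted p = 0.118 to 0.155). It also ended with a pseudocount of 64 (0.14, adjusted p = 0.0509), without the filter (0.36, adjusted p = 0.097) and after quantile normalization (0.31, adjusted p = 0.0804). Without PRMT5 shRNA 2 replicate 1 the averaged difference was called (0.36, adjusted p = 0.0326). 207530_s_at stayed between 4.9 and 7.4 and was not kept.

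CDKN2D, which encodes p19, read 22.2 and 18.2 with NTC, 24 and 23.7 with PRMT5 shRNA 1, and 20.7 and 24.3 with PRMT5 shRNA 2 on 210240_s_at. The NTC and PRMT5 shRNA 2 arrays overlapped, and the averaged difference of 0.12 ± 0.10 was not called by limma (adjusted p = 0.422). 213586_at, below the array median in all 6 arrays and not kept, read 9.2 and 11 with NTC and 14 to 15.7 in the knockdown arrays.

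**Figure D2:**
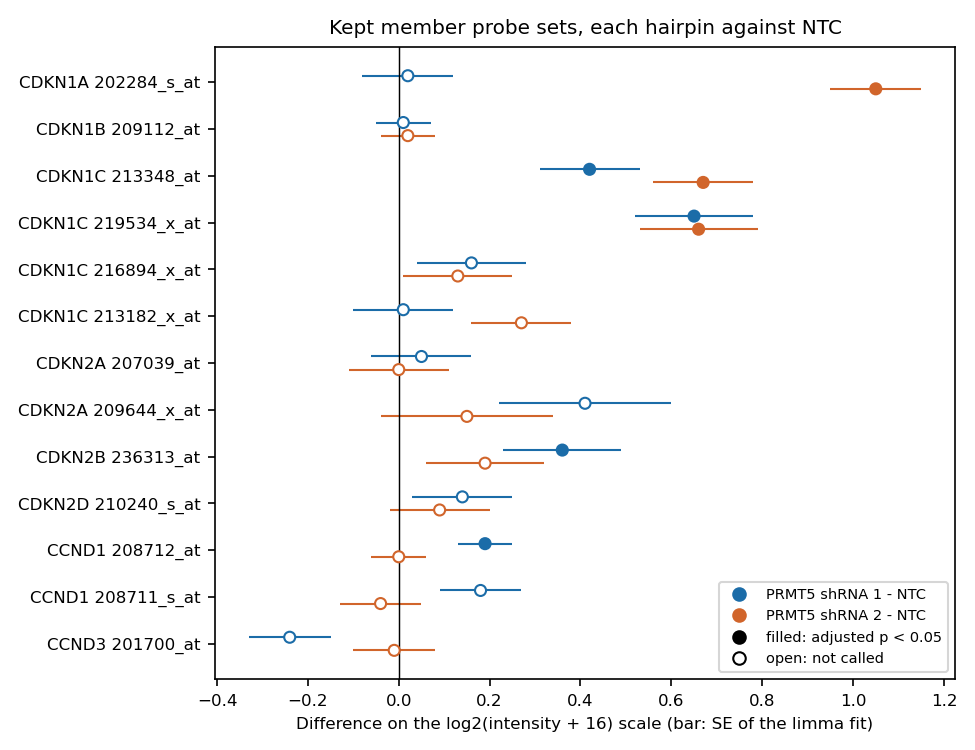
Difference from NTC of the 13 kept member probe sets on the log2(intensity + 16) scale, in blue for PRMT5 shRNA 1 and in orange for PRMT5 shRNA 2; bars are the SE of the limma fit and filled points are called. CDKN1A is at 0.02 for the first hairpin and 1.05 for the other, and the 2 upper CDKN1C rows are filled for both.

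Of the D cyclins, CCND1 had a bright probe set that was slightly higher with PRMT5 shRNA 1. 208712_at read 1569.2 and 1496.1 with NTC, 1811.8 and 1695.2 with PRMT5 shRNA 1, and 1560.9 and 1507.3 with PRMT5 shRNA 2. Both PRMT5 shRNA 1 arrays lay above the other 4, which overlapped. The difference from NTC was 0.19 ± 0.06 with PRMT5 shRNA 1 (limma adjusted p = 0.0261) and 0.00 ± 0.06 with PRMT5 shRNA 2 (adjusted p = 0.991). PRMT5 shRNA 2 was lower than PRMT5 shRNA 1 by a difference of -0.19 ± 0.06 (adjusted p = 0.0362), in 2 of 2 arrays. The call against NTC ended without either NTC array or PRMT5 shRNA 1 replicate 1 (0.14 to 0.23, adjusted p = 0.0687 to 0.181). The call between the hairpins ended without any array other than PRMT5 shRNA 2 replicate 1 (-0.24 to -0.14, adjusted p = 0.0605 to 0.214). It also ended without the filter (adjusted p = 0.0804), after quantile normalization (adjusted p = 0.0616), without the intensity trend (adjusted p = 0.117) and with the arrays of the 2 hairpins alone (adjusted p = 0.0607). The call against NTC also ended without the filter (adjusted p = 0.0587) and without the trend (adjusted p = 0.0954).

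The other CCND1 probe set, 208711_s_at, read 102.8 and 113.3 with NTC, 128.1 and 121 with PRMT5 shRNA 1, and 102.1 and 106.7 with PRMT5 shRNA 2. Here too both PRMT5 shRNA 1 arrays were the highest, and the other groups overlapped. Neither the difference of 0.18 ± 0.09 with PRMT5 shRNA 1 (limma adjusted p = 0.154) nor that of -0.22 ± 0.09 between the hairpins (adjusted p = 0.103) was called.

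CCND3 read 158.5 and 151.8 with NTC, 138.6 and 120.6 with PRMT5 shRNA 1, and 150.8 and 156.7 with PRMT5 shRNA 2 on 201700_at. Both PRMT5 shRNA 1 arrays were below the other 4. The difference of -0.24 ± 0.09 with PRMT5 shRNA 1 missed the threshold (limma adjusted p = 0.0687), as did the 0.22 ± 0.09 between the hairpins (adjusted p = 0.0988). 1562028_at stayed between 0.4 and 1.9 and was not kept.

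None of the 4 probe sets of CCND2 was kept. The highest, 200953_s_at, read 5 and 6.4 with NTC, 4.5 and 6.9 with PRMT5 shRNA 1, and 10.2 and 10.5 with PRMT5 shRNA 2, all under the array median. The other CCND2 probe sets stayed between 0.3 and 7. When the filter was dropped, 0 of the 9 member probe sets that had failed it were called by limma in any comparison, and 1 or 2 of them had an unadjusted p under 0.05.

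The kinases served by the D cyclins and inhibitors were read from the brightest single-gene probe set of each of 12413 genes. Over these genes, with both hairpins averaged, 15.0% were called higher and 16.3% lower, with a median difference of -0.01. With PRMT5 shRNA 1 the shares were 15.9% and 22.9%, with PRMT5 shRNA 2 they were 12.5% and 7.94%, and between the hairpins 18.4% were higher and 7.36% lower with PRMT5 shRNA 2. Genes named in the lists that follow because a count was small, rather than for the size of their averaged difference, were chosen after their values were seen.

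CDK4, the partner of the D cyclins, read between 1330.9 and 1543.6 in the 6 arrays and differed by -0.07 ± 0.06 with both hairpins averaged, which was not called by limma (adjusted p = 0.373). CDK2, a partner of cyclins E and A and a target of p21 and p27, read 563.9 and 533.7 with NTC, 585.2 and 608.2 with PRMT5 shRNA 1, and 463.7 and 545 with PRMT5 shRNA 2. Its difference between the hairpins was -0.24 ± 0.08 and was not called (adjusted p = 0.0512). No probe set of CDK6 was kept, and its 7 probe sets stayed between 0.5 and 10.9.

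Of 14 listed G1 kinases, cyclins and their activators, 12 were tested, and with both hairpins averaged limma called 0 higher and 3 lower (0 and 3 at an unadjusted p under 0.05), with a median of -0.03. The 3 were the phosphatases CDC25A and CDC25B, which remove inhibitory phosphates from CDKs, and cyclin E1. CDC25A read 944.6 and 983.9 with NTC, 660 and 603.8 with PRMT5 shRNA 1, and 700.9 and 744.9 with PRMT5 shRNA 2. CDC25A thus fell with both hairpins, by an averaged difference of -0.50 ± 0.06 (limma adjusted p = 1.09e-04), and CDC25B had one of -0.39 ± 0.06 (adjusted p = 3.69e-04). Both were called in each hairpin alone, with every single array left out and with the hairpins fitted as 1 group, where CCNE1 was not (adjusted p = 0.263). CCNE1, with an averaged difference of -0.31 ± 0.09, was lower with PRMT5 shRNA 1 (-0.51 ± 0.11) and higher with PRMT5 shRNA 2 than with PRMT5 shRNA 1 (0.39 ± 0.11, adjusted p = 0.0224). Its averaged call ended without NTC replicate 2 or either PRMT5 shRNA 1 array (adjusted p = 0.0503 to 0.226), and its call between the hairpins without either PRMT5 shRNA 1 array or PRMT5 shRNA 2 replicate 2 (adjusted p up to 0.138).

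RB1 itself, the substrate of the cyclin D kinases, differed by 0.07 ± 0.06 with both hairpins averaged and was not called by limma. All 18 genes listed for RB, E2F and the DREAM repressor complex were tested, with 1 called higher, 3 lower and a median of -0.07. The 3 lower were RBL1, which encodes the RB relative p107 (-0.29 ± 0.06), the repressor E2F6 (-0.25 ± 0.06) and the DREAM subunit LIN52 (-0.33 ± 0.10). TFDP2, a dimer partner of the E2F proteins, was higher (0.20 ± 0.06). Each of these calls ended when some arrays were left out: RBL1 without NTC replicate 1 (adjusted p = 0.0751), E2F6 without either NTC array (adjusted p = 0.0683 and 0.084), LIN52 without either NTC array or replicate 1 of either hairpin (adjusted p up to 0.179) and TFDP2 without either NTC array or either PRMT5 shRNA 1 array (adjusted p up to 0.186). With the hairpins fitted as 1 group, limma called 0 of the 18 in either direction (1 higher and 3 lower at an unadjusted p under 0.05). Between the hairpins 2 of these genes were higher (E2F5 and E2F6) and 4 lower (E2F1, E2F7, LIN9 and RBBP4). The DREAM and MuvB subunit LIN9, at -0.74 ± 0.11 (adjusted p = 0.00156), was the one of these 6 that stayed called with every single array left out. It was read from an _x_at probe set, which can bind related transcripts, as were CDT1 and SKP2 below.

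Of 25 E2F-driven G1/S genes, 24 were tested, and with both hairpins averaged limma called 0 higher and 7 lower (0 higher and 11 lower at an unadjusted p under 0.05), with a median of -0.12. The helicase subunit genes MCM2 (-0.37 ± 0.06) and MCM3 (-0.31 ± 0.06) and the initiation factor gene MCM10 (-0.29 ± 0.05) were called lower, and these calls stayed with every single array left out. With the hairpins fitted as 1 group 1 of the 24 was called lower, MCM10 (adjusted p = 0.0404), while MCM2 (adjusted p = 0.0855) and MCM3 (adjusted p = 0.261) were not. With PRMT5 shRNA 2 alone MCM3 differed by -0.08 ± 0.07 (adjusted p = 0.535). The licensing factor CDT1 was called lower (-0.26 ± 0.08), and this ended without any array other than PRMT5 shRNA 2 replicate 2 (limma adjusted p = 0.0724 to 0.253). With PRMT5 shRNA 1, 9 were lower and 1, MCM4 (0.37 ± 0.07), was higher, and with PRMT5 shRNA 2, 3 were lower (MCM2, MCM10 and CDT1), of which MCM10 alone stayed called with every single array left out. The count of lower genes in the averaged comparison ranged from 3 to 7 with an array left out. Between the hairpins 6 were higher with PRMT5 shRNA 2 and 1, MCM4, was lower (-0.52 ± 0.07), a count that ranged from 2 to 5 for the higher genes with an array left out.

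The turnover of inhibitors and D cyclins was covered by 18 genes, all tested. Not all of them promote degradation, since USP2, given below, removes ubiquitin. SKP2, the F-box protein that marks p27 for degradation, differed by 0.02 ± 0.06 with both hairpins averaged and was not called by limma. With both hairpins averaged limma called 0 of the 18 higher and 6 lower (0 and 6 at an unadjusted p under 0.05), with a median of -0.11. With the hairpins fitted as 1 group it called 0 (0 higher and 3 lower at an unadjusted p under 0.05). The 6 included CUL1, the scaffold of SCF ubiquitin ligases (-0.28 ± 0.06), the cyclin D1 F-box protein FBXO31 (-0.31 ± 0.08), AMBRA1, the D cyclin receptor of a CUL4 ligase (-0.31 ± 0.10), and USP2, a protease that removes ubiquitin from cyclin D1 (-0.39 ± 0.09). With PRMT5 shRNA 1, 7 were lower and 2 (PIM1 and RBX1) higher, and with PRMT5 shRNA 2 limma called 0 in either direction (0 higher and 2 lower at an unadjusted p under 0.05). Over all genes 22.9% were lower with PRMT5 shRNA 1 and 7.94% with PRMT5 shRNA 2. Between the hairpins, 5 were higher (CUL1, DDB1, DTL, COPS5 and FBXO31) and 4 lower (RBX1, CKS1B, GSK3B and PIM1). CUL1, for example, read a mean of 391 with PRMT5 shRNA 1 and a mean of 493 with PRMT5 shRNA 2, a difference of 0.32 ± 0.07 (adjusted p = 0.006). CUL1, DDB1, DTL and PIM1 stayed called between the hairpins with every single array left out, and the other 5 did not. The averaged count of lower genes ranged from 0 to 7 with an array left out. The averaged calls ended for CUL1 without NTC replicate 2 (adjusted p = 0.0641), for USP2 without either NTC array (adjusted p up to 0.0673), for FBXO31 without either NTC array or PRMT5 shRNA 1 replicate 2 (adjusted p up to 0.167) and for AMBRA1 without either NTC array or replicate 1 of either hairpin (adjusted p up to 0.263).

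Of 23 transcriptional regulators of the inhibitors and D cyclins, activators and repressors alike, 20 were tested. With both hairpins averaged 7 were called higher and 1 lower, with a median of 0.07, beside 15.0% and 16.3% over all genes. ID1, an inhibitor of basic helix-loop-helix factors and a repressor of CDKN2A, read 123.4 and 147.1 with NTC, 722.4 and 744.2 with PRMT5 shRNA 1, and 565.5 and 492.5 with PRMT5 shRNA 2. ID1 rose by 2.08 ± 0.08 with both hairpins averaged (limma adjusted p = 1.73e-08), and the rise was smaller with PRMT5 shRNA 2, by a difference of -0.46 ± 0.09 between the hairpins (adjusted p = 0.00553). KLF4, an activator of CDKN1A, read 117.2 and 104.4 with NTC, 219.9 and 218.6 with PRMT5 shRNA 1, and 205.1 and 230.2 with PRMT5 shRNA 2. KLF4 rose with both hairpins (0.89 ± 0.09 and 0.88 ± 0.09), and the difference between the hairpins was -0.01 ± 0.09 and was not called.

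TBX3, a repressor of the CDKN2A locus and of CDKN1A, rose by 0.47 ± 0.05 with both hairpins averaged (limma adjusted p = 5.39e-05). ID1, KLF4 and TBX3 stayed called in that comparison with every single array left out, and they were the 3 of the 7 called with the hairpins fitted as 1 group. FOXO4, of the forkhead factors that activate CDKN1B, had a difference of 0.29 ± 0.09, whose call ended without any array other than PRMT5 shRNA 2 replicate 1 (adjusted p = 0.0501 to 0.212). The 1 gene called lower was the histone methyltransferase EZH2 (-0.18 ± 0.06, adjusted p = 0.0424), and its call ended without any array other than PRMT5 shRNA 2 replicate 2 (adjusted p up to 0.373). The count of higher genes ranged from 3 to 6 with an array left out. With PRMT5 shRNA 2, 4 were higher (ID1, KLF4, TBX3 and CBX7) and limma called 0 lower (3 at an unadjusted p under 0.05). The shares over all genes were 12.5% and 7.94%. CBX7 lost its call for 4 of the 6 arrays left out. SP1, which binds GC boxes, was higher with PRMT5 shRNA 1 (0.69 ± 0.07) and was lower with PRMT5 shRNA 2 than with PRMT5 shRNA 1 (-0.89 ± 0.07, adjusted p = 1.00e-04).

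**Figure D3:**
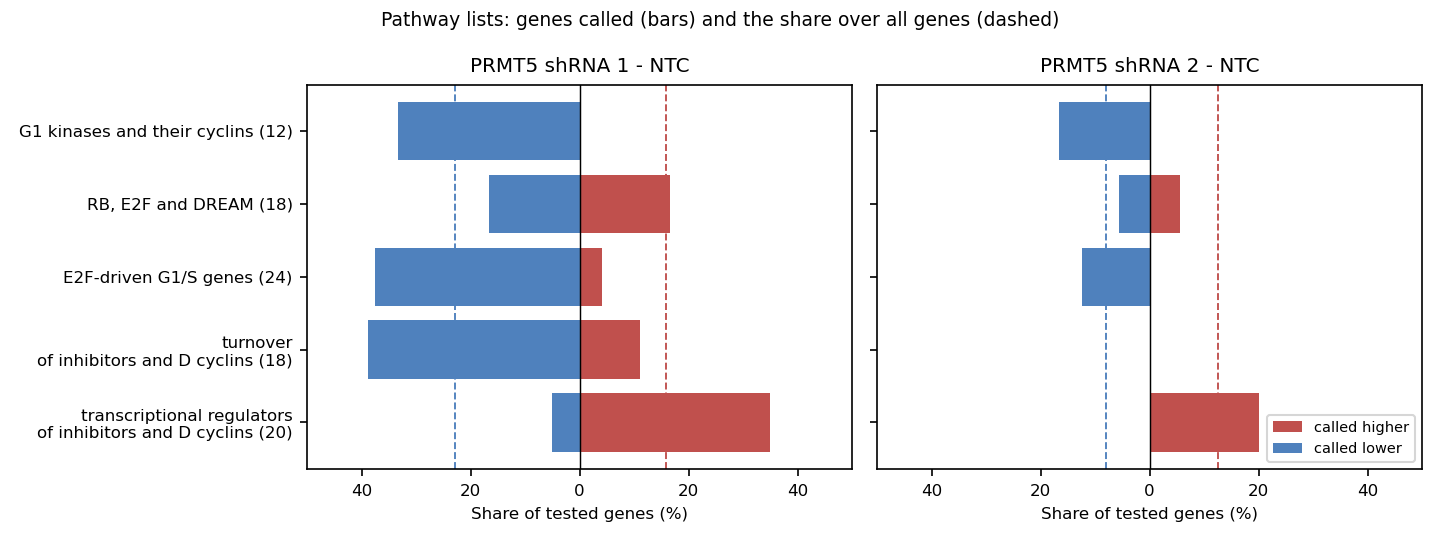
Share of tested genes (%) called higher (red, to the right) or lower (blue, to the left) with PRMT5 shRNA 1 and PRMT5 shRNA 2 against NTC in 5 pathway lists, with the number tested in brackets; dashed lines give the shares over all 12413 genes. In the list on turnover of inhibitors and D cyclins 7 of 18 genes were lower with the first hairpin and 0 with the other. The shares lower over all genes were 22.9% and 7.94%.

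The genes next to the members on the chromosome were taken in RefSeq order (GRCh38.p14), and 11 of 16 such neighbours had a kept probe set. With both hairpins averaged 1 was called higher and 1 lower, beside 15.0% and 16.3% over all genes. MTAP, beside CDKN2A, was lower (-0.39 ± 0.09, limma adjusted p = 0.0077), a call that ended without NTC replicate 2 (-0.30, adjusted p = 0.102). KCNQ1, beside CDKN1C, was higher (0.27 ± 0.09, adjusted p = 0.0448), and this ended with any array left out (adjusted p = 0.06 to 0.199). KCNQ1 read 27.3 and 27.8 with NTC, 29.4 and 29.2 with PRMT5 shRNA 1, and 43.8 and 46 with PRMT5 shRNA 2, so that its rise lay with PRMT5 shRNA 2 (0.48 ± 0.10, adjusted p = 0.00825). That call ended without NTC replicate 1 (adjusted p = 0.0545).

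GPR19, beside CDKN1B, was higher with PRMT5 shRNA 2 (0.56 ± 0.11, limma adjusted p = 0.00601) and higher than with PRMT5 shRNA 1 (0.55 ± 0.11, adjusted p = 0.00637), although CDKN1B was not called. The latter call ended without PRMT5 shRNA 1 replicate 2 (0.45, adjusted p = 0.0617). SRSF3, the splicing factor gene beside CDKN1A, read 2436 and 2508.9 with NTC, 2654.7 and 2736.7 with PRMT5 shRNA 1, and 2640.5 and 2345.2 with PRMT5 shRNA 2, and was not called (0.07 ± 0.05 averaged). BYSL, beside CCND3, was lower with PRMT5 shRNA 1 (-0.37 ± 0.10, adjusted p = 0.0133), a call that ended without NTC replicate 2 or PRMT5 shRNA 1 replicate 2 (adjusted p up to 0.107).

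The 3 genes whose 6-array profile of log2 differences from the NTC mean lay closest to that of CDKN1A were STUM, CPLX2 and HABP2, at Euclidean distances of 0.35, 0.41 and 0.47. STUM read 32.1 and 25.3 with NTC, 33.3 and 31.2 with PRMT5 shRNA 1, and 66.7 and 70.9 with PRMT5 shRNA 2, and so had its high values in the same 2 arrays as CDKN1A. The closest to CDKN1C (213348_at) were ABCC6P1, ACTN2 and ITPRIP, at distances of 0.10, 0.12 and 0.12. ACTN2 read 19.5 and 17.9 with NTC, 31.7 and 27.6 with PRMT5 shRNA 1, and 37.9 and 39.3 with PRMT5 shRNA 2. Such closeness over 6 arrays of 3 groups describes the order of the groups and was not tested.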

How the data were processed

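Expression arrays of 6 VCaP samples were used. The deposited values are probe set intensities. Per the submitters' processing notes the tool was MAS5, whose version is not given in the sources used here. The lowest mean intensity of a deposited column after trimming 2% at each end was 150, and no further scaling was applied. Groups came from the sample titles, and 0 value columns matched no sample. Probe sets were named through the platform annotation (41091 with 1 symbol, 1801 with several, 11721 with none), and Entrez IDs matched 41037 to RefSeq (GRCh38.p14), with 0 symbols altered. The 62 controls were dropped.

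Values were fitted as log2(intensity + 16) with limma 3.58.1 in R 4.3.3 (lmFit, eBayes with an intensity trend) over all 6 arrays with a coefficient per group, with 3 residual and 8.11 prior degrees of freedom. All tests were two-sided. The median SD between replicates was 0.089. The script was tested on simulated data. Alternatives covered the pseudocount (1 and 64), filter, quantile normalization, a replicate block, 1 probe set per gene, the trend, the arrays fitted and each array left out.

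Besides the members, up to 4 genes per list were named, those with the largest averaged difference among those called, with CDK2, CDK4, CDK6, RB1 and SKP2, the neighbours and the 3 closest profiles of the 2 members that moved most. Members and lists were chosen with earlier results of these data known. 1 gene of the rule and 1 gene list are not reported here.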

Additional observations from a re-analysis of the deposited data

Results flagged for a closer look

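Of the members, 2 probe sets responded to the hairpins in different ways by the direct test of PRMT5 shRNA 2 against PRMT5 shRNA 1 in limma. CDKN1A (202284_s_at) was higher with PRMT5 shRNA 2 by 1.03 ± 0.10 (adjusted p = 1.56e-04), with both arrays of that hairpin above the other 4. CCND1 (208712_at) was lower with PRMT5 shRNA 2 by a difference of -0.19 ± 0.06 (adjusted p = 0.0362), with both PRMT5 shRNA 1 arrays above the other 4. The CCND1 difference lost its call under several alternatives, given above, and the CDKN1A difference kept it in each one run. Groups of 2 arrays are too small to look for a sample that stands apart.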

How the results depend on the processing

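Over 15 alternatives, 52 member results gave 708 values: 650 kept their side of the threshold and, where they had no call, their size, 28 moved, 27 lost a call and 3 gained one. No called member value changed sign, and 29 uncalled values did. With an array left out, the member probe sets called numbered 3 to 4 for both hairpins averaged, 1 to 4 for PRMT5 shRNA 1, 2 to 3 for PRMT5 shRNA 2 and 1 to 2 between the hairpins. Over all probe sets the counts were 8066, 10434, 5158 and 7379, and with an array left out 4171 to 8629, 6520 to 11305, 2770 to 4833 and 3234 to 6597. A group left with 1 array was assumed to vary like the others. With the 4 knockdown arrays as 1 group, 2516 probe sets were called in place of 8066. Without the filter the PRMT5 shRNA 1 count of members was 2 in place of 4. Between the hairpins it was 1 in place of 2 without the filter, after quantile normalization, with the replicate block, without the trend and with the arrays of the 2 hairpins alone. The cause of these changes was not tested.

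The deviations of same-numbered arrays correlated at -0.0618, -0.142 and -0.000749, so none of these correlations was positive. With so few arrays per group they cannot exclude a culture or batch shared by same-numbered samples, and the labels state neither. With the replicate block, 3, 4, 3 and 1 member probe sets were called in the 4 comparisons, and the counts over all probe sets were 7355, 9601, 4596 and 6556. The block ended the CCND1 call between the hairpins (adjusted p = 0.0548), and in the list of E2F-driven G1/S genes 4 in place of 7 were called lower in the averaged comparison. Members near the array median, such as CDKN2B and CDKN2D, are limited by signal over background, and their log2 differences depend on the pseudocount. CCND2 lay below it throughout and was not kept.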
